A study of Homo sapiens with 59 samples.

Results

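This section describes the 7 genes of the natriuretic peptide system, the peptides NPPA, NPPB and NPPC, the convertase CORIN and the receptors NPR1, NPR2 and NPR3, out of 19084 gene symbols measured. They were taken by symbol, and all 7 were found. The set was selected on TPM values of these same libraries, in which NPPA was high at the longest exposures, so the levels of its members are given as a description, with a standard error (SE) but without a p-value.

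RNA was sequenced from neural stem cells in 59 libraries. The cells derive from 1 established line of human embryonic stem cells, WA09 (H9), for which the labels name no genetic change. Every group was given FGF8b (200 ng per mL) first, then CHIR99021, a GSK3 inhibitor that activates WNT signalling, and then medium with retinoic acid for 4 days before lysis. The 20 groups differ in the length of the CHIR99021 step, from 2 to 24 h in steps of 2 h and from 30 to 72 h in steps of 6 h, and a group without CHIR99021 was not analysed here. Replicates carry the labels A1, A2 and B1, so that a group holds 3 libraries, or 2 (A1 and A2) at 48 h. The labels do not say that replicates were separate cultures, so SEs and p-values cover the spread between libraries alone, possibly a technical one, and longer exposure also meant longer total culture.

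Natriuretic peptides are short secreted hormones cut from longer precursors. The atrial peptide made from NPPA is released from its precursor by CORIN, a transmembrane serine protease, and acts with the B-type peptide of NPPB on NPR1, a membrane guanylyl cyclase that makes cyclic GMP (cGMP). The C-type peptide of NPPC acts on a related cyclase, NPR2, which in the embryo is known for steering the branching of sensory axons at the hindbrain and spinal cord, and NPR3 lacks the cyclase and removes the peptides. NPPA and NPPB are best known from heart muscle, while CORIN is also a surface marker of floor plate progenitors at the ventral midline of the neural tube.

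The 250 bases before the RefSeq start site are shown for NPPA, NPPC and CORIN, the members whose mean over the 54 to 72 h libraries was highest above that of the 2 to 8 h libraries. They are from RefSeq on GRCh38.p14, 5′ to 3′ on the gene's own strand, here the minus strand for each. NPPA is at chr1:11847784-11848033, NPPC at chr2:231926397-231926646 and CORIN at chr4:47838068-47838317. Capitals mark matches on either strand to 6 motifs. The basal promoter motif searched was TATAAA, known as the TATA box. For TCF/LEF factors, through which beta-catenin acts, the core CTTTGA was searched. Sites of GATA factors were searched as GATAA, and those of the heart factor NKX2-5 by the core AAGTG. For CDX factors, which pattern the posterior body, the letters were TTTATNG. For retinoid receptors the half-site AGGTCA was searched.
NPPA: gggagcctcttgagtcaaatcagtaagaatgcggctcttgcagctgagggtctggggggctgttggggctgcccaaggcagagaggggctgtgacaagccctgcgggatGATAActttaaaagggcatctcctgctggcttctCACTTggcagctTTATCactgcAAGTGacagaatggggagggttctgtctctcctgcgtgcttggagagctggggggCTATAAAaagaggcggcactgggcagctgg
NPPC: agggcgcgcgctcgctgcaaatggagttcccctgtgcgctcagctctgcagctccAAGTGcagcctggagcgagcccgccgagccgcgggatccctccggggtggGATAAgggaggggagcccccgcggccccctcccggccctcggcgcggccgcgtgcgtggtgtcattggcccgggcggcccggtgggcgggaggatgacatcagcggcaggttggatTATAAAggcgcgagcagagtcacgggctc
CORIN: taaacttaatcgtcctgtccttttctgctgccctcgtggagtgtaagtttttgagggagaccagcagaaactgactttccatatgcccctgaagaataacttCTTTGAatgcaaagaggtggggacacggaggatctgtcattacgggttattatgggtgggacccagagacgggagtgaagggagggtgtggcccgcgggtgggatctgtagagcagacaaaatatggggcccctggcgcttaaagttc
NPPA and NPPC each held TATAAA, its first base 29 bases before the start, as did 10.8% of 34788 human windows of this length. The NPPA window held GATAA 2 times and AAGTG 2 times, letters present in 20.5% and 37.6% of windows, and the NPPC window held each 1 time. The TTTATNG match in NPPA, found in 9.0% of windows, overlaps its TATA box. CTTTGA was found in the CORIN window, 148 bases before the start, and in 11.2% of all windows, and AGGTCA was in none of these 3 windows and in 12.0% of all. A match is a description of the letters, not evidence of binding.

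Values are TPM, a transcript abundance with the same total in every library, which are scaled by transcript length and so allow levels of different genes to be set side by side, but which keep no depth. The number of genes reaching 1 TPM ran from 9348 to 13085 per library, and it was under 10000 in 3 of them, namely B1 of 4 h, B1 of 42 h and A2 of 72 h. Log2 differences are of log2(TPM + 1) between 3 windows of 12 libraries each, early (2 to 8 h), first day (18 to 24 h) and late (54 to 72 h). This scale understates changes of low genes, and contrasts that share a window share its libraries. In bulk RNA, more cells of a type cannot be told apart from more RNA per cell.

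**Figure D1:**
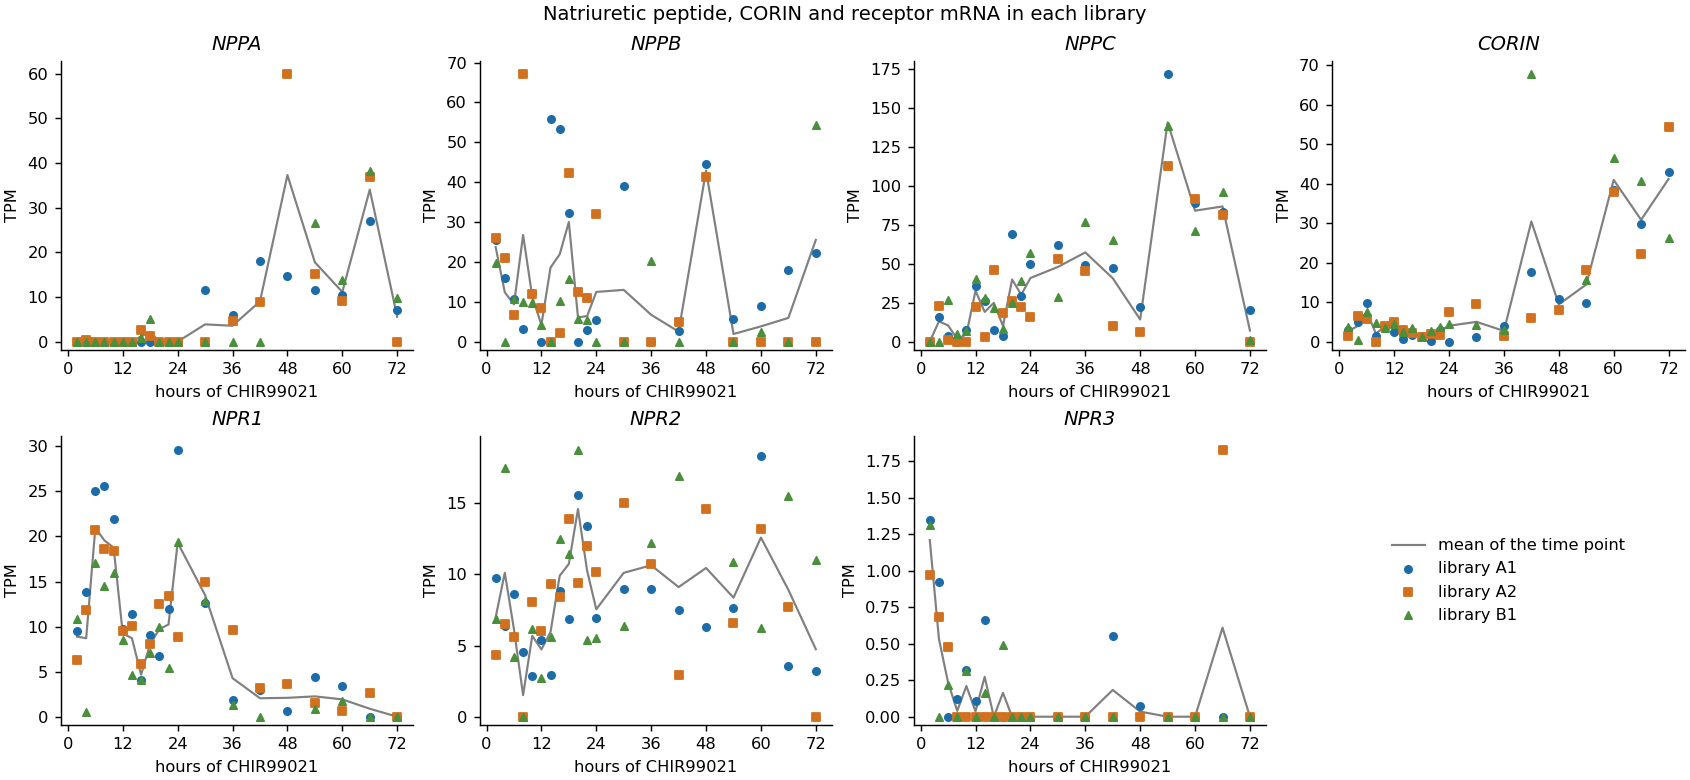
TPM of the 7 genes (vertical axis) against hours of CHIR99021 (horizontal axis), with 1 point per library, marked by replicate label, and a line through the mean of each time point. NPPA is mostly at 0 up to 24 h, the CORIN mean reaches 41.2 TPM after 72 h, that of NPPC peaks with 141 TPM after 54 h, and NPR1 is listed at 0 in all 3 libraries of 72 h.

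NPPA was almost absent from libraries of the first day and present in nearly all of the last day. It was listed at 0 in 31 of the 36 libraries of 2 to 24 h. The 5 exceptions were 0.32 TPM in 4 h A2, 2.66 and 0.91 TPM in 16 h A2 and B1, and 1.27 and 5.08 TPM in 18 h A2 and B1. Expression was uneven between replicates from 30 to 42 h, with 11.6 TPM in 30 h A1 and 0 in its 2 companions, 5.93, 4.73 and 0 TPM in A1, A2 and B1 at 36 h, and 18.1, 8.96 and 0 TPM at 42 h. From 48 h every library except 72 h A2 had NPPA.

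The highest NPPA value was in 48 h A2, at 59.8 TPM, against 14.8 TPM in 48 h A1. The A1, A2 and B1 libraries had 11.7, 15.1 and 26.6 TPM after 54 h, then 10.4, 9.15 and 13.8 TPM after 60 h. The 66 h libraries, with 27.1, 36.9 and 38.1 TPM, were all above those of 54 and 60 h. At 72 h the level was lower again, at 7.02 TPM in A1, 0 in A2 and 9.73 TPM in B1. The 72 h A2 library had under 10000 genes and listed every member but CORIN at 0.

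By mean, the order of NPPA was 48 h (37.3 ± 31.9 TPM, SD, n = 2), 66 h (34.0 ± 6.05, n = 3), 54 h (17.8 ± 7.80), 60 h (11.1 ± 2.42), 42 h (9.01 ± 9.04) and 72 h (5.58 ± 5.02). Only 66 and 54 h, among neighbours in this order, were farther apart than their SDs. The late window averaged 17.1 ± 12.2 TPM (SD, n = 12) against 0.529 ± 1.48 TPM on the first day and 0.0267 ± 0.0924 TPM early. The log2 difference was 3.71 for late minus early (SE 0.398) and 3.43 for late minus first day, against 0.28 for first day minus early. The late mean was 14.0, 15.3 and 22.1 TPM in the libraries labelled A1, A2 and B1, so NPPA was high late under each label.

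CORIN, which encodes the protease that activates the NPPA precursor, was low but present early and abundant late. Early libraries had from 0 to 9.69 TPM with a median of 4.25, and first day libraries from 0 to 7.55 TPM with a median of 1.82. Late libraries ran from 9.86 to 54.4 TPM with a median of 33.8, and none overlapped an early or first day library. The late mean was 31.9 ± 13.7 TPM (SD, n = 12), a log2 difference of 2.86 from early (SE 0.336) and 3.38 from the first day.

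The high CORIN levels followed a dip. Its lowest mean was at 18 h, with 1.31, 1.07 and 1.08 TPM in A1, A2 and B1, below the 9.69, 5.74 and 7.59 TPM of 6 h. At 48 h the 2 libraries had 10.8 and 8.08 TPM, at 54 h the 3 had 9.86, 18.0 and 15.5 TPM, and at 60 h they had 38.5, 37.9 and 46.5 TPM. The 54 and 60 h libraries did not overlap, whereas the means of 60 h (41.0 ± 4.81 TPM), 66 h (30.9 ± 9.20) and 72 h (41.2 ± 14.1) were within their SDs.

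CORIN was also high in a doubtful library. In 42 h B1, which had under 10000 genes, CORIN was at 67.7 TPM, against 17.6 TPM in A1 and 6.05 TPM in A2. Without the 3 libraries with under 10000 genes, the highest CORIN mean was at 60 h rather than at 72 h, and the late window mean was 29.8 ± 12.3 TPM (SD, n = 11). The late minus early difference has the same sign in that setting.

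NPPA and CORIN were found together in the late libraries. Both were at 5 TPM or more in 11 of 12 late libraries. The exception was 72 h A2, a library with under 10000 genes, where CORIN was at 54.4 TPM and NPPA at 0. Both reached that level in 4 of 11 libraries of 30 to 48 h and in none of the 36 libraries of 2 to 24 h, where NPPA reached it 1 time and CORIN 5 times. Over the 20 time-point means of log2(TPM + 1), which come from the same libraries, Pearson's r was 0.742 between NPPA and CORIN. Their peaks differed, since NPPA had its highest means at 48 and 66 h, and CORIN averaged 9.43 ± 1.91 TPM at 48 h (SD, n = 2) and was high at 72 h, where NPPA was low.

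NPPC, the gene of the C-type peptide, was the most abundant of the 3 peptide genes by mean in the first day and late windows. Within the first day, however, NPPB had the higher mean at 18 h (30.0 TPM, against 10.0 TPM for NPPC). The NPPB mean was also the higher one at 48 h and 72 h. NPPC was listed at 0 in all 3 libraries of 2 h, and early libraries ran from 0 to 26.5 TPM with 6 of 12 at 0. On the first day all 12 libraries had it, from 3.56 to 69.0 TPM with a median of 25.3. The late window ran from 0 to 171 TPM with a median of 86.2, so that its range overlapped both earlier windows.

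That wide late range came from a peak at 54 h and a fall at 72 h. The 48 h libraries had 22.5 and 5.87 TPM, and 6 h more of CHIR99021 gave 171, 113 and 138 TPM in A1, A2 and B1. Means were then 84.0 ± 11.4 TPM at 60 h and 86.7 ± 7.81 TPM at 66 h (SD, n = 3). The 72 h libraries had 20.1, 0 and 1.08 TPM, the 0 being that of A2, with under 10000 genes. Each of these steps, up from 48 to 54 h, down from 54 to 60 h and down from 66 to 72 h, left no overlap between libraries.

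Earlier swings of NPPC were smaller. After a mean of 32.6 ± 9.58 TPM for 12 h, the 18 h libraries averaged 10.0 ± 7.80 TPM and those of 20 h reached 39.8 ± 25.3 TPM. In the order of means only 54 h stood off from the next time point, 66 h, by more than the SDs. The first day exceeded the early window by 3.02 on the log2 scale and the late window did so by 3.84 (SE 0.493 each), while late and first day differed by 0.82, a value that was 0.51 without the A1 libraries and 0.26 without 6, 30 and 54 h.

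NPPB, the gene of the B-type peptide, was the main peptide transcript early and the most erratic member. The 2 h libraries were alike, at 25.4, 26.0 and 19.8 TPM. At 14 h, by contrast, A1 was at 55.8 TPM and both A2 and B1 at 0, and at 8 h A2 was at 67.0 TPM against 3.29 and 9.94 TPM in A1 and B1. In all, 17 of the 59 libraries were at 0 and no value above 0 was under 2.18 TPM.

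NPPB averaged 18.1 ± 17.5 TPM early, 13.7 ± 14.1 TPM on the first day and 9.30 ± 16.1 TPM late (SD, n = 12 each), with overlapping ranges. It was at 0 in 6 of 12 late libraries, among them all 4 labelled A2, of which 72 h A2 had under 10000 genes. The late minus early log2 difference was −1.81 (SE 0.780), and it was −0.43 without the A2 libraries and −2.76 without the A1 libraries. Its highest mean was at 48 h, 42.9 ± 2.30 TPM (SD, n = 2), a time at which NPPC was low. No time point differed from its neighbour in the order of means by more than the SDs.

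Seen per library, the makeup of the peptide transcripts changed over the course. NPPB made up 77.6 ± 26.0% of the summed TPM of the 3 peptide genes in the 11 early libraries with any of them, and 14.2 ± 26.5% in 11 late libraries (mean ± SD). NPPC went from 22.3 ± 25.9% to 69.5 ± 26.9%, and NPPA from 0.0656 ± 0.218% to 16.2 ± 7.88%. NPPB was the highest of the 3 in 9 early libraries, and NPPC in 9 late libraries. NPPA was the highest in none of the early, first day or late libraries. Outside these windows it was the highest in 48 h A2, at 59.8 TPM against 41.3 TPM for NPPB and 5.87 TPM for NPPC. The sum itself was 24.3 ± 19.0 TPM early and 106 ± 51.1 TPM late (SD, n = 12).

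NPR1, the cyclase receptor of the NPPA and NPPB peptides, was the reverse of NPPA by window mean, higher early and on the first day than late. It was found in every library up to 36 h, was highest at 6 h (25.0, 20.7 and 17.1 TPM in A1, A2 and B1), and came back to 29.7, 8.90 and 19.4 TPM at 24 h after a low of 4.12, 5.84 and 4.02 TPM at 16 h. From 42 h no library exceeded 4.41 TPM, and at 72 h all 3 were listed at 0, among them A2 with under 10000 genes. Between 66 and 72 h the NPR1 mean went from 0.883 to 0 TPM while that of NPPA also fell, from 34.0 to 5.58 TPM. The early mean was 14.5 ± 7.42 TPM and the late mean 1.27 ± 1.51 TPM (SD, n = 12 each), a log2 difference of −2.79 (SE 0.316).

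Late and early NPR1 ranges overlapped only through 4 h B1, a library with under 10000 genes, at 0.48 TPM. The other 11 early libraries were at 6.32 TPM or more. The first day libraries, from 5.44 to 29.7 TPM, did not overlap the late ones, and the late minus first day difference was −2.64. In the order of means, 10 h (18.8 ± 2.98 TPM) stood above 30 h (13.5 ± 1.31 TPM), and 18 h above 16 h, by more than the SDs.

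NPR2, the cyclase receptor of the NPPC peptide, had overlapping ranges in all 3 windows. Its time-point means ran from 1.52 ± 2.63 TPM at 8 h to 14.6 ± 4.76 TPM at 20 h (SD, n = 3), and no neighbours in the order of means differed by more than the SDs. The window means were 6.19 ± 4.61 TPM early, 10.8 ± 4.21 TPM on the first day and 8.65 ± 5.34 TPM late. Against the early window, log2 differences were 1.00 on the first day and 0.49 late (SE 0.323 each), the latter being 0.79 without the A1 libraries, 0.18 without the B1 libraries and 0.84 without the 3 libraries with under 10000 genes.

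The balance of the cyclase receptors turned from NPR1 towards NPR2, though not steadily. NPR1 had the higher TPM in 10 of 12 early libraries, in 8 of 12 libraries of 10 to 16 h, in 6 of 12 first day libraries and in 4 of 11 libraries of 30 to 48 h. In the late window NPR2 was higher in 11 libraries and both were at 0 in the other, 72 h A2, which had under 10000 genes. NPR1 made up 68.6 ± 25.9% of the TPM of the pair early (SD, n = 12), 50.8 ± 15.9% on the first day and 11.8 ± 12.6% late (n = 11).

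**Figure D2:**
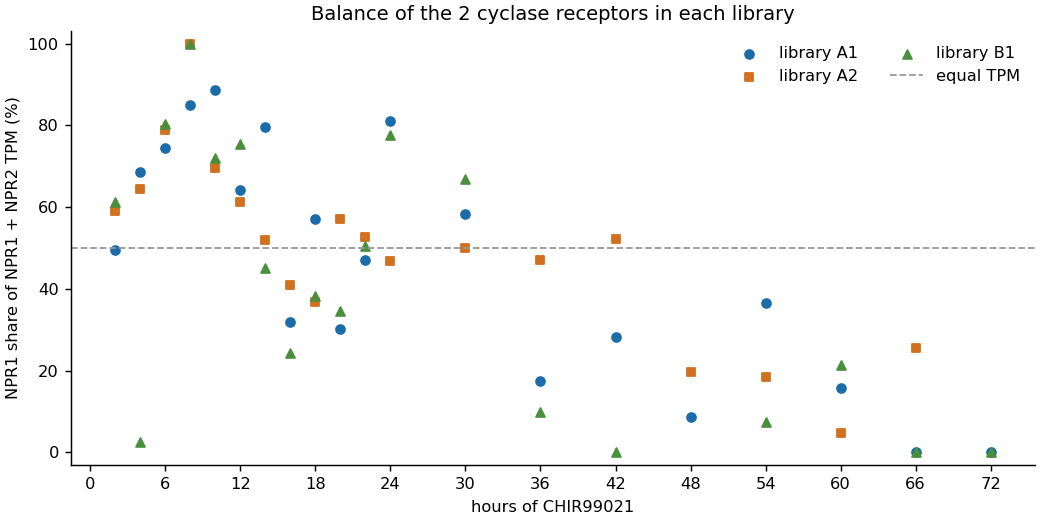
NPR1 as a percentage of the summed TPM of NPR1 and NPR2 (vertical axis) against hours of CHIR99021 (horizontal axis), with 1 point per library with either gene above 0, marked by replicate label, and a dashed line at equal TPM. The share averages 68.6% at 2 to 8 h and 11.8% at 54 to 72 h, and the low early point is 4 h B1 at 2.67%.

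NPR3, the clearance receptor, was close to the limit of what these libraries show. It was at 0 in 42 of 59 libraries and at 1 TPM or more in 3. The 2 h libraries had 1.35, 0.97 and 1.31 TPM, the only time point with all 3 above 0.9 TPM, and the highest value, 1.83 TPM, was in 66 h A2 alone. The late minus early log2 difference was −0.39 (SE 0.132).

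**Figure D3:**
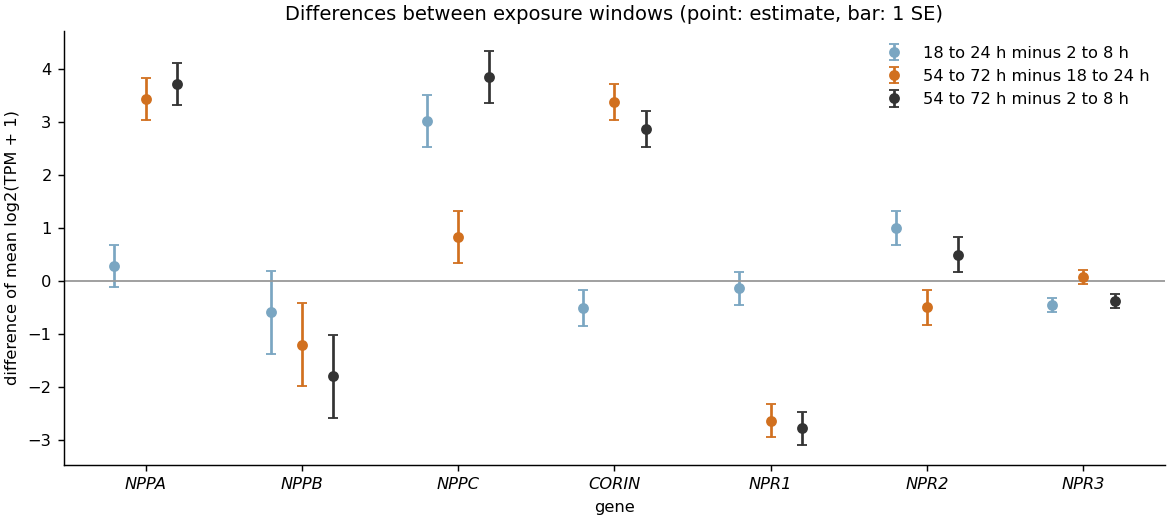
Differences in mean log2(TPM + 1) between exposure windows (vertical axis) for the 7 genes (horizontal axis), with points at the estimate and bars of 1 SE, from 12 libraries in each window. NPPA and CORIN differ mainly between the first day and the late window, NPPC mainly between the early and first day windows, and the late minus early difference of NPR1 is −2.79.

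Genes that act around these members were taken from 6 lists of 55 genes, of which 54 were in the table and 45 passed the filter on low values. Pooled over the 6 lists, their shares of calls in late minus early and over the course were near those of all genes. In late minus early 5 of the 45 (11.1%) were higher and 8 (17.8%) lower, beside 14.3% and 15.8% of all 15305 genes tested (limma, adjusted p under 0.05), with medians of −0.084 and −0.042. Over the course 18 of 45 (40.0%) changed, beside 36.8% of all genes (limma F-test on a natural spline).

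Among genes that process or remove the peptides, FURIN fell and the other 5 of 6 did not pass in late minus early. That made 16.7% of the list lower, beside 15.8% of all genes. FURIN, a proprotein convertase, went from 25.2 ± 10.5 to 14.3 ± 4.97 TPM (SD, n = 12 each; log2 difference −0.73, limma adjusted p = 9.7e-04). That call was lost without the libraries labelled A1 (adjusted p = 0.061) or A2 (0.067). The insulin-degrading enzyme IDE, which also degrades these peptides, was at 31.3 ± 6.96 TPM early and 29.0 ± 9.37 TPM late. MME, or neprilysin, the main peptidase of these hormones, was at 2.00 ± 2.36 TPM early, 5.13 ± 4.05 TPM on the first day and 3.20 ± 2.50 TPM late.

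Of 7 tested genes for other sources of cGMP, 1 rose and 1 fell in late minus early (14.3% each), near the 14.3% and 15.8% of all genes. GUCY1A2, a subunit of the cyclase that senses nitric oxide, went from 0.473 ± 0.595 to 2.61 ± 1.46 TPM (log2 difference 1.26, limma adjusted p = 1.8e-06). NOS2, a nitric oxide synthase, went from 1.34 ± 1.81 to 0.227 ± 0.440 TPM (−0.67, adjusted p = 0.0087), a call lost under quantile normalization (adjusted p = 0.214) and without the libraries labelled A1 or A2. GUCY1B1, the partner subunit, listed under its older symbol, was at 36.9 ± 15.8 TPM early and 35.2 ± 14.4 TPM late.

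Both cGMP-dependent kinases rose in late minus early, and the other 5 tested genes of their list did not pass. That made 28.6% of the list higher, beside 14.3% of all genes. PRKG2, the type II kinase, went from 0.267 ± 0.386 TPM early to 2.58 ± 1.25 TPM on the first day and 6.01 ± 5.60 TPM late (late minus early 2.03, limma adjusted p = 1.9e-06). PRKG1, the type I kinase, was at 7.55 ± 3.01, 6.86 ± 3.67 and 13.4 ± 6.69 TPM in the 3 windows (late minus early 0.71, adjusted p = 0.018). The PRKG1 call was lost without the libraries labelled A1 or B1 and without 6, 30 and 54 h, at adjusted p of 0.126, 0.166 and 0.073. VASP, a substrate of these kinases, was at 58.7 ± 18.4 TPM early and 55.4 ± 20.4 TPM late.

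Of 12 genes that degrade or export cGMP, 4 fell (33.3%) and 1 rose (8.33%) in late minus early, beside 15.8% and 14.3% of all genes. PDE11A, a phosphodiesterase of both cyclic nucleotides, went from 5.84 ± 2.64 to 0.881 ± 0.753 TPM (log2 difference −1.80, limma adjusted p = 1.2e-05). PDE3A, whose breakdown of cyclic AMP is inhibited by cGMP, went from 6.64 ± 4.43 to 1.05 ± 1.24 TPM (−1.68, adjusted p = 6.5e-05). ABCC4, a pump that exports cyclic nucleotides, went from 96.0 ± 17.6 TPM early and 87.0 ± 20.5 TPM on the first day to 47.5 ± 20.1 TPM late (−1.13, adjusted p = 2.6e-06). PDE10A, named as the gene that rose and chosen after its values were seen, went from 4.97 ± 2.35 to 9.76 ± 4.85 TPM (0.87, adjusted p = 0.0087), a call lost without the libraries labelled B1. PDE9A fell from 31.1 ± 12.2 to 20.4 ± 12.0 TPM at an adjusted p of 0.048, which held in 1 of 9 alternative settings.

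PDE1B, a calcium-activated phosphodiesterase, fell in late minus first day (−1.54, limma adjusted p = 0.0072), from 27.0 ± 7.66 to 11.3 ± 7.96 TPM, after 16.0 ± 11.4 TPM early. That call was lost with a pseudocount of 0.1 (adjusted p = 0.062), without the libraries labelled A1 (0.056) or A2 (0.089), and without 6, 30 and 54 h (0.054). In first day minus early 5 of the 45 genes (11.1%) were higher and 5 lower, beside 10.5% and 9.45% of all genes. In late minus first day 2 (4.44%) were higher and 5 (11.1%) lower, beside 5.43% and 7.08%. All 5 lower genes were among the 12 that degrade or export cGMP (41.7%), a list singled out after its values were seen. Over the course 7 of these 12 changed (58.3%, beside 36.8% of all genes). Of the 5 calls only that of ABCC4 held in all 9 alternative settings.

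**Figure D4:**
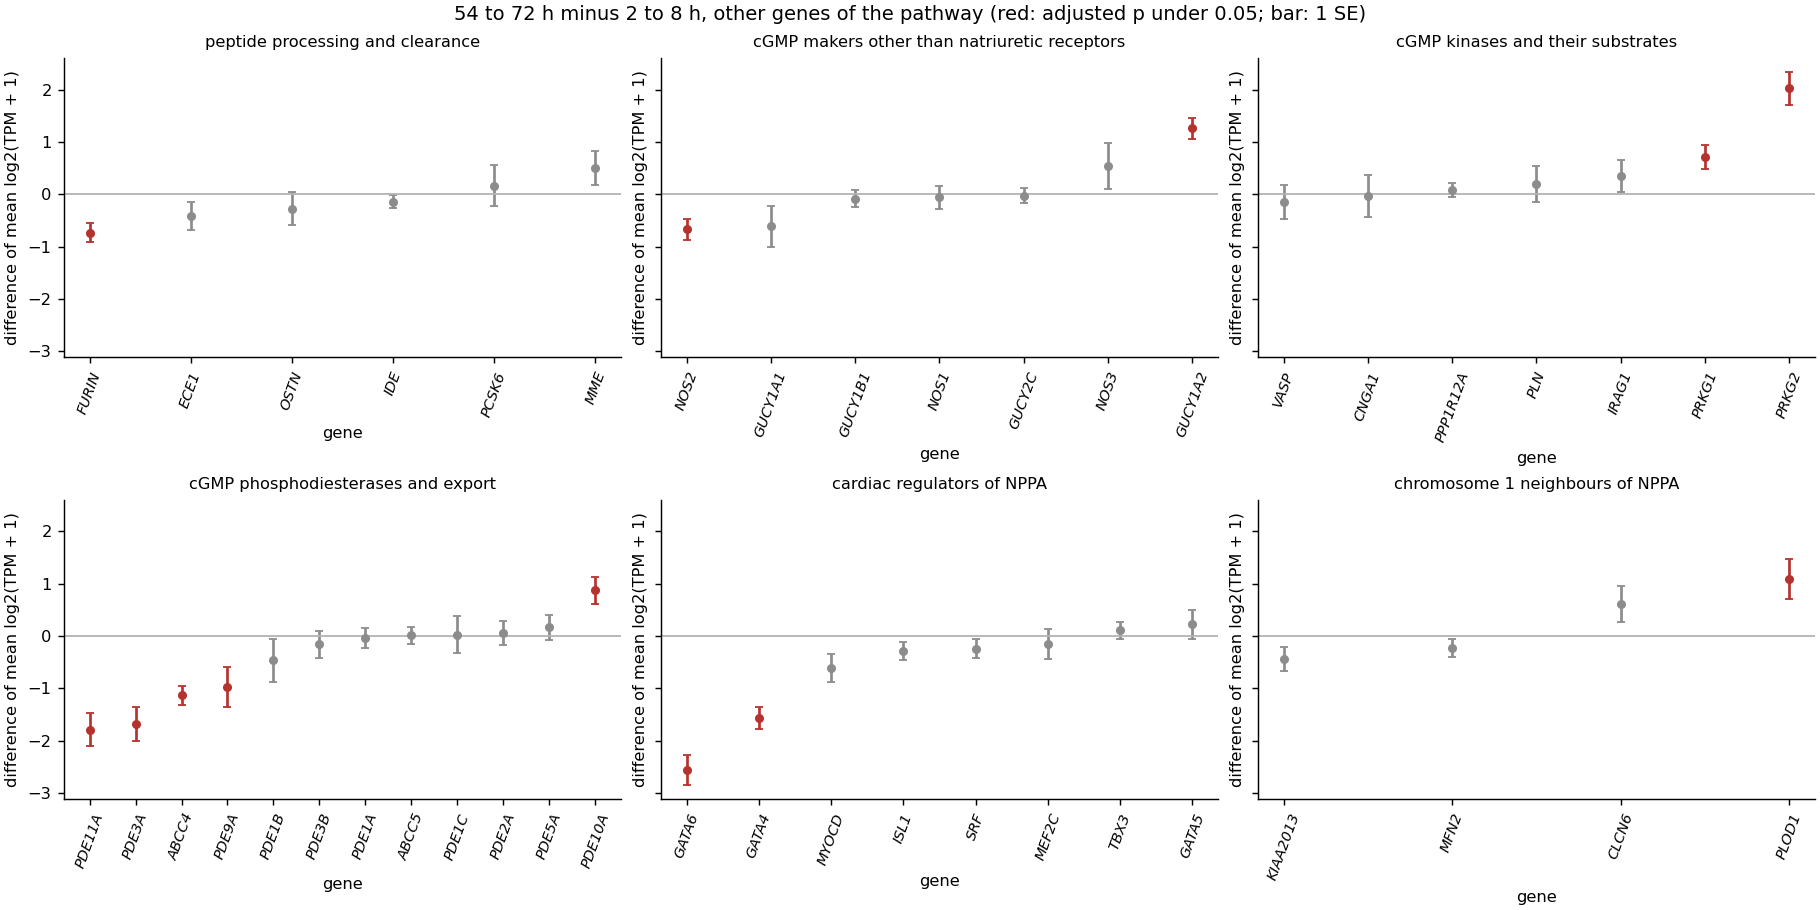
Difference in mean log2(TPM + 1) between 54 to 72 h and 2 to 8 h (vertical axis) for the tested genes of 6 lists, without 1 gene that is not reported here (1 panel per list, genes on the horizontal axis), with bars of 1 SE and genes with an adjusted p under 0.05 in red. PRKG2 is the highest at 2.03, and GATA6 the lowest at −2.56.

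No tested heart regulator of the NPPA gene rose in late minus early. Of 14 such genes 8 were tested, and 2 of these fell (limma, adjusted p under 0.05), beside 14.3% of all genes higher and 15.8% lower. GATA4 averaged 3.12 ± 3.58 TPM early, and every one of the 12 late libraries lists it at 0, and GATA6 went from 13.5 ± 7.47 to 1.47 ± 1.37 TPM (−2.56, adjusted p = 8.6e-10). HAND2 was listed at 0 in every library, and NKX2-5, TBX5, TBX20 and HAND1 were above 0 in 2, 2, 1 and 1 of 59 libraries. None of the 8 tested genes passed in late minus first day, beside 5.43% of all genes higher and 7.08% lower. The part of these regulators in the NPPA level was not tested.

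The genes beside NPPA on chromosome 1 passed the test of late minus early in 1 of 5 cases, a rise (20%, beside 14.3% of all genes). CLCN6, next to NPPA, was at 15.6 ± 8.71 TPM early and 26.6 ± 28.5 TPM late (log2 difference 0.62, limma adjusted p = 0.189). PLOD1, which encodes a lysyl hydroxylase of collagen, rose (1.08, adjusted p = 0.027), a call lost without the libraries labelled A1 or A2, and KIAA2013 and MFN2 did not pass. An antisense gene, NPPA-AS1, overlaps NPPA in the RefSeq annotation. Under that symbol it is not among the 19084 measured, so it could not be analysed. Whether counting used strand is not given, so its reads cannot be told apart from those of NPPA.

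The libraries carried the neural markers that their label names, and some markers of the heart at lower summed levels. Neural progenitor markers (11 of 11 measured) summed to between 2138 and 4276 TPM early and between 2249 and 3885 TPM late. Most of each sum came from CDH2 and VIM, the latter at 731 ± 126 TPM early and 1074 ± 241 TPM late. The sums of the lists are therefore not a measure of cell identity. SOX1 had the lowest early mean of the list, at 1.30 ± 1.46 TPM, and was at 19.1 ± 10.1 TPM late. Of the 11 markers 8 rose (72.7%) and 2 fell (18.2%) in late minus early, beside 14.3% and 15.8% of all genes. SOX2 went from 40.1 ± 22.7 to 141 ± 55.9 TPM (2.12, limma adjusted p = 9.0e-08). The genes that fell, named after their values were seen, were PAX6, from 195 ± 26.2 to 142 ± 26.1 TPM (−0.47, adjusted p = 1.7e-06), and the cadherin CDH2, from 2092 ± 435 to 1193 ± 265 TPM (−0.82, adjusted p = 1.3e-09). Cardiomyocyte markers (14 of 14 measured) summed to between 11.6 and 155 TPM early and between 21.1 and 65.9 TPM late, ACTC1 being the largest at 25.3 ± 13.4 TPM late. ACTC1 was above 0 in all 59 libraries, and 8 of the 14 passed the filter. The troponin TNNI3 was above 0 in 45 libraries, at 11.8 ± 10.3 TPM on the first day and 5.35 ± 8.70 TPM late, with 53.3 TPM in 8 h A2 as its highest value. TNNT2 was above 0 in 24 libraries, at 1.79 ± 2.46 TPM early and 1.89 ± 3.84 TPM late. MYL2 was at 0 in every library, MYH6 was above 0 in 3 and MYH7 in 1. MYL4, an atrial and embryonic myosin light chain, rose from 0.142 ± 0.344 to 5.59 ± 6.73 TPM (1.83, limma adjusted p = 3.6e-04), while MYL3 fell (−1.65, adjusted p = 9.3e-04).

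High CORIN went with high levels of some genes of both midlines of the neural tube, while several defining floor plate genes were at or near 0. SHH and NKX2-2 were each above 0 in 1 of 59 libraries, and FERD3L was at 0 in all of them. FOXA2, also a defining floor plate gene, was above 0 in 31 libraries and fell from 4.33 ± 4.12 TPM early to 1.12 ± 3.89 TPM late (−1.61, limma adjusted p = 0.0024), a call lost without the A2 libraries. Floor plate markers (9 of 9 measured) summed to between 45.6 and 106 TPM early, 18.0 and 44.8 TPM on the first day and 104 and 200 TPM late, with SPON1, an adhesion protein, going from 30.6 ± 17.3 to 104 ± 15.9 TPM (1.95, limma adjusted p = 2.2e-12) and FOXA1 falling. Roof plate markers (9 of 9 measured) summed to between 0 and 120 TPM early and between 168 and 397 TPM late. Of 8 tested 5 rose (62.5%) and 0 fell in late minus early, beside 14.3% and 15.8% of all genes. Among those that rose were GDF7 (3.59) and LMX1A (2.62), a gene of both lists. The part of these cell types in the levels of NPPA and CORIN was not tested.

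Other marker lists were measured in the same way. Neuron markers (10 of 10 measured) summed to between 206 and 369 TPM early and between 301 and 579 TPM late. Of these 10 genes 8 rose (80%) and 0 fell in late minus early, beside 14.3% and 15.8% of all genes. Among them, STMN2 went from 2.85 ± 2.41 to 63.6 ± 23.2 TPM (4.28, limma adjusted p = 2.5e-17). Neural crest markers (8 of 8) summed to between 142 and 436 TPM early and between 152 and 437 TPM late, with SOX10 above 0 in 5 of 59 libraries. Within those crest sums, of 7 tested genes 3 rose (42.9%) and 2 fell (28.6%) in late minus early. TFAP2A went from 79.4 ± 73.7 to 0.298 ± 0.603 TPM (−5.55, limma adjusted p = 4.0e-22), while SOX9 (2.47), SNAI2 (1.88) and PAX3 (0.84) rose, the SNAI2 call being lost with a pseudocount of 0.1 and without the B1 libraries. Endothelial markers (7 of 7) summed to between 12.3 and 40.0 TPM early and between 4.19 and 37.1 TPM late. Of these 7 genes 2 rose and 2 fell in late minus early (28.6% each), among them TEK (1.32) and CDH5 (−2.15). Smooth muscle and fibroblast markers (8 of 8) summed to between 126 and 565 TPM early and between 315 and 715 TPM late. Of 7 tested in this list 2 rose (28.6%) and 0 fell, with the smooth muscle actin ACTA2 going from 13.1 ± 24.9 to 54.2 ± 20.1 TPM (2.80, limma adjusted p = 1.0e-06). Their part in the members' levels was not tested either.

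Genes with the most similar courses were sought among 13138 tested genes that reached a mean of 5 TPM or more at some time point, by Pearson's r over 20 time-point means, which share the libraries. Nearest to CORIN were HOXB9, a posterior HOX gene (r = 0.910), ZMAT3 (0.896), the caudal homeobox gene CDX2 (0.876), KCNE1 (0.875) and ADCYAP1R1, the receptor of the neuropeptide PACAP (0.875). Nearest to NPPA were PREX1 (0.895), CPLX2 (0.894), the homeobox gene GBX2 (0.893), HOXA5 (0.890) and COTL1 (0.889). All 10 of these genes had their highest window mean late, which follows largely from their choice by likeness to CORIN and NPPA.

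The remaining members resembled other genes, and NPR3 was too low for this comparison. Nearest to NPR1 were FARP1 (0.909), SSX2IP (0.905), SNX17 (0.897), COBL (0.895) and IGSF11 (0.895), all highest early, again largely through the choice. Nearest to NPPC were ZADH2 (0.888), TMPO (0.873), PAX3 (0.849) and IFIT5 (0.847), and nearest to NPR2 were PFKM (0.884), C10orf76 (0.857), ADCY3 (0.825) and FZR1 (0.823). NPPB had no gene above 0.732, its nearest being CDC42BPG (0.732), CAPG (0.731), ANKRD1 (0.726), S100A11 (0.716) and RPL18 (0.710). NPPB and NPPC ran opposite to each other over the 20 time points (r = −0.762), as did NPPA and NPR1 (−0.803) and CORIN and NPR1 (−0.772), whereas NPPA and NPPB had an r of −0.174.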

How the data were processed

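The deposited values are TPM per gene symbol for 59 libraries. The submitters' processing notes name RSEM 1.2.3, Bowtie 0.12.8, CASAVA 1.8.2 and the build hg19, per the labels. Which annotation was used is not given in the sources at hand. Depth is unknown, so no detection limit was computed, and no 2 libraries were identical. Groups and replicates come from the labels.

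From these, log2(TPM + 1) was analysed in R 4.3.3 with limma 3.58.1 (intensity trend, Benjamini-Hochberg adjustment over the 15305 genes with at least 1 TPM in at least 3 libraries, threshold 0.05), using 20 time-point means (39 residual df) for window contrasts and a natural spline with 4 df for the course. All 59 libraries entered. The fits were also run on simulated data with normal noise. Such data lack the many zeros of low genes, and no result is drawn from that run. Named genes are the members, up to 5 passing genes per list by size of the largest window difference, list genes named as not passing or at 0, and the 5 nearest genes of each member but NPR3, except 4 genes that are not reported here. Members, lists and tests were chosen with earlier results of these data known. Promoters are from RefSeq on GRCh38.p14, and no hg19 coordinates are given. Alternatives varied the pseudocount, filter, scaling, block, spline and libraries. Figures used matplotlib 3.10.9 in Python 3.11.15.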

Additional observations from a re-analysis of the deposited data

How the results depend on the processing

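Of 180 alternative values of the members' window differences, 172 moved by less than the gene's SD between replicates. This count overstates stability. Values without the filter or with a replicate block equalled the main ones, since these settings leave the window means as they are. For NPPB the SD was 2.00 on the log2 scale, so even a change of sign stayed within it. NPR3 has no values with a replicate label left out, where it did not pass the filter. The 8 values that moved more were all with a pseudocount of 0.1, which enlarges changes of genes near 0. There NPPA differed by 6.54 (late minus early) and 5.92 (late minus first day), NPPC by 5.27 (late minus early) and 4.73 (first day minus early), NPR1 by −4.33 (late minus early) and −4.26 (late minus first day), and NPR3 by −1.54 (late minus early) and −1.68 (first day minus early). Differences changed sign in 3 cases: NPPB late minus first day without the A2 libraries (0.41 against −1.21), and the small NPR1 difference of first day minus early without A1 (0.0052) and without 6, 30 and 54 h (0.10). Leaving out each replicate label in turn gave from 3 to 10 list genes in first day minus early (10 with all libraries), 2 to 5 in late minus first day (7), 9 to 10 in late minus early (13) and 6 to 15 over the course (18). The lowest of these counts were, in that order, without A1, without A2, without A1 or A2, and without A2. Calls over all tested genes also fell when a label was left out. Without A1 they were 1594 in first day minus early (3057 with all libraries) and 908 in late minus first day (1915). In late minus early they were 2956 (4606), and over the course 3232 (5629). Without A2 they were, in the same order, 2014, 1071, 3337 and 3573, and without B1 2402, 1757, 4227 and 5291. Late minus first day fell to 4 genes both with a pseudocount of 0.1 and without 6, 30 and 54 h. Over all genes, 1729 and 1845 passed in these settings, against 1915. The cause was not tested, beyond the smaller number of libraries. Libraries of one replicate label but different times had a median r of deviations of 0.0049, against −0.0023 between labels. Yet 32 of 59 resembled most the others of their own label, more than an even split over the 3 labels would give. The labels were not taken as pairs in the main fits. A replicate block gave 12, 10, 7 and 17 list genes for late minus early, first day minus early, late minus first day and the course. Over all genes it gave 4610, 3050, 1915 and 5616. TPM keep no depth, so zeros of short, low genes such as NPPB cannot be told from missed reads.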
